A study of Mus musculus with 8 samples.

Results

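Young-only Foxa2 sites are places on the mouse genome that were listed as bound by Foxa2 in liver at 3 months and that overlapped no other listed site of the study. Foxa2 and Hdac3 had been located by chromatin immunoprecipitation with sequencing (ChIP-seq) in snap-frozen liver of wild-type C57BL/6 mice, an inbred laboratory strain. The groups were Foxa2 at 3 months (young), Foxa2 at 21 months (old), Hdac3 at 3 months and Hdac3 at 21 months, with 2 libraries and 1 list of sites each, and no other treatment or genotype was given. A site of the young Foxa2 list was counted as young-only when it overlapped no site of the 3 other lists by 1 bp or more. Of 6604 young Foxa2 sites 3782 met this rule, 57.3% of the list, out of 28196 sites in the 4 lists together. Of these, 2357 were under 30 bp wide and 1425 were 30 bp or wider, and both width classes are described separately.

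Foxa2 is a forkhead transcription factor of hepatocytes that recognises a short forkhead DNA element, can bind it in closed chromatin and opens the way for other liver factors. Hdac3 is a histone deacetylase that is brought to DNA by nuclear receptor corepressors and takes part in the daily control of lipid metabolism in the liver. A site in a ChIP-seq list is a stretch in which sequenced fragments were denser than a background, and its width is the length of that stretch and not of the bound DNA element. Whole liver was used, so the cells that carried Foxa2 at a site are not known, and bile duct cells also make Foxa2. Positions refer to the mm9 build and are copied from the lists, and each site is named by its position, since genes and sequences of mm9 were not used here. With 1 list per group no value has a replicate error, no age difference was tested, and the 95% intervals are exact (Clopper-Pearson) binomial intervals for counting error only. Read depth per library is unknown.

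Membership used overlap with the 3 other lists, so the share of sites without a counterpart is a description with no test. The single-list share was 78.2% in the old Foxa2 list, 93.7% in the young Hdac3 list and 89.9% in the old Hdac3 list, beside the 57.3% of the young Foxa2 list. The lists differ in length and in q limit, so these shares are not compared further.

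Young-only sites were rare among the young Foxa2 sites with the lowest q-values and common in the rest of the list. Of the 500 sites with the lowest q, 5 were young-only, and all 5 were 30 bp or wider. The young-only share was 5.4% over ranks 501 to 1000 and 18.8% over ranks 1001 to 1500. From rank 2501 on it lay between 69.8% and 82.8% in every bin. The widths of the young-only sites changed along the ranking. Of ranks 1501 to 2000, 33.6% were young-only sites of 30 bp or more and 4.8% were young-only sites under 30 bp. Over ranks 3501 to 4000 the order was turned, with 18.4% against 63.2%. In 1 later bin, ranks 5001 to 5500, the wider sites were again as frequent as the shorter ones, with 35.6% against 34.2%.

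**Figure D1:**
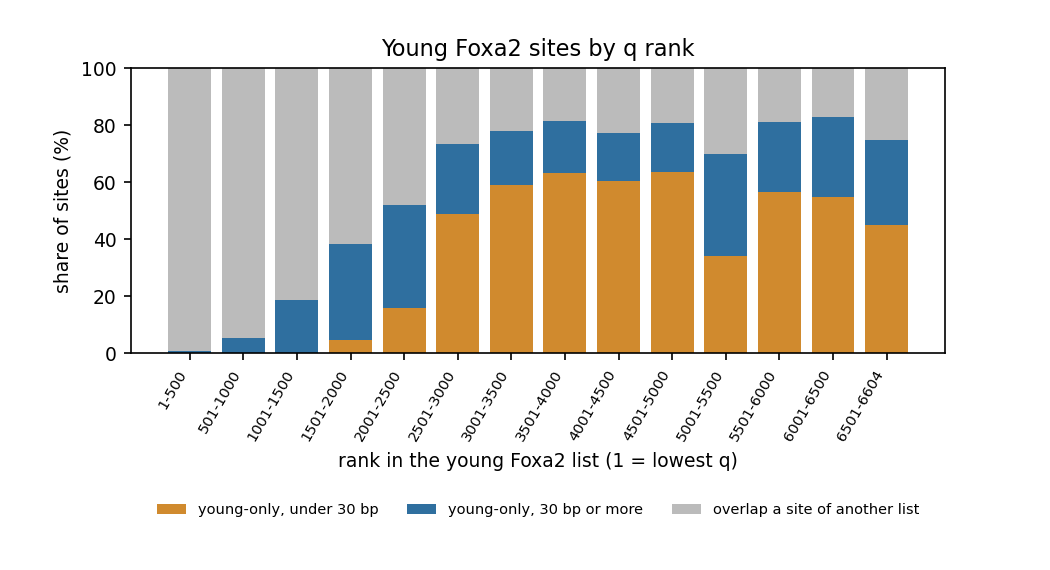
Share of young Foxa2 sites (y axis, percent) in bins of 500 ranks by q-value (x axis, lowest q on the left; the last bin holds 104 sites), split into young-only sites under 30 bp (orange), young-only sites of 30 bp or more (blue) and sites that overlap a site of another list (grey). The young-only share grows from 1.0% in the first bin to 73.4% over ranks 2501 to 3000, with the wider sites entering first.

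Narrow young Foxa2 sites were mostly young-only, and the share fell with width from 11 bp up to 199 bp. Of the 144 sites of 1 bp, 126 were young-only, 87.5% (95% interval 81.0 to 92.4). The share was 79.9% at 21 to 29 bp (76.5 to 83.1), 68.2% at 30 to 49 bp (65.2 to 71.0) and 38.6% at 50 to 99 bp (36.2 to 40.9). It was lowest at 100 to 199 bp, where 50 of 906 sites were young-only, 5.52% (4.12 to 7.21). At 200 bp or more it was higher again, with 39 of 228 sites, 17.1% (12.5 to 22.6). A wider site has more bases that can meet a site of another list, so width and membership are not independent and the order was not tested. The young-only sites together covered 119.6 kb of DNA, 28.6 kb in the shorter and 91.0 kb in the wider class, against 339 kb in the 2822 other young sites.

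**Figure D2:**
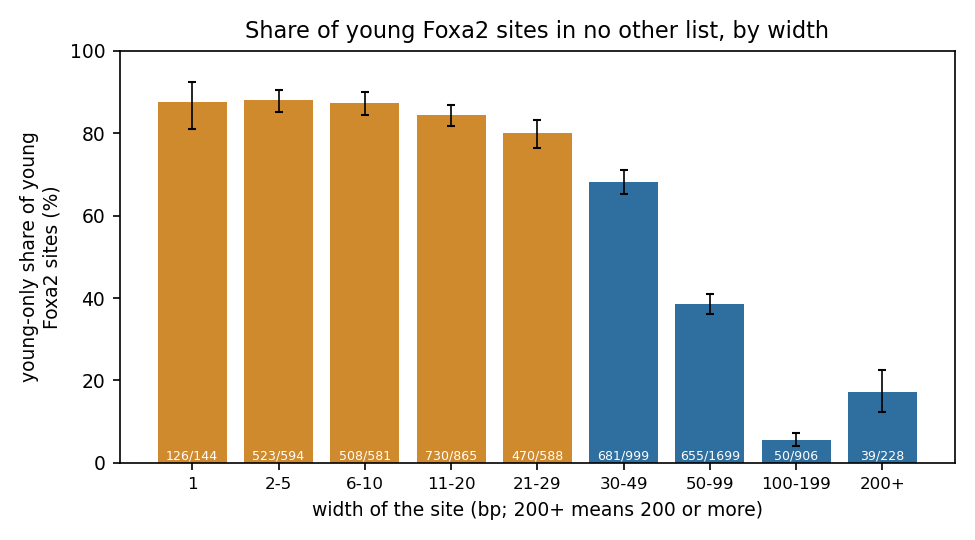
Young-only share of young Foxa2 sites (y axis, percent) by width of the site in bp (x axis), with exact 95% intervals as error bars and, in each bar, the young-only sites over all young sites of that width. Orange bars are sites under 30 bp and blue bars sites of 30 bp or more. The share lies between 79.9% and 88.0% in the 5 narrowest bins and falls to 5.52% at 100 to 199 bp.

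The young-only sites under 30 bp were very short stretches with weak q-values, as were the other young Foxa2 sites under 30 bp. They made up 62.3% of the young-only sites (60.8 to 63.9), against 14.7% of the other young Foxa2 sites (13.4 to 16.1). Their median width was 11 bp (quartiles 5 and 19), and 649 of them measured 5 bp or less. Their q-values ran from 0.00914 to 0.12 with a median of 0.0328, and 1 of 2357 had a q of at most 0.01. The other young Foxa2 sites under 30 bp had a median width of 14 bp and a median q of 0.0303. Of these 415 sites, 2 had a q of at most 0.01. The same width class made up 10.2% of the old Foxa2 sites that were in no other list (9.60 to 10.8), 58.3% of such young Hdac3 sites (57.0 to 59.6) and 63.8% of such old Hdac3 sites (62.0 to 65.7). In its share of short sites the young-only Foxa2 class therefore lay beside the Hdac3 classes and above the old Foxa2 class, as a measured share with no test.

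The 5 short young-only sites with the lowest q lay on 3 chromosomes. The first, chr4:146826994-146827014, had a q of 0.00914, rank 1302 in the list and an authors' enrichment of 14.6. The second, chr2:164595373-164595398, had a q of 0.0138 and an enrichment of 83.0, and an old Foxa2 site lay 120 bp from it. The others were the single base chr4:146561919-146561919 with a q of 0.0146, chr15:76137734-76137761 with a q of 0.0147, which lay 363 bp from a young Hdac3 site, and chr4:121772360-121772374 with a q of 0.0148. Among these 5, only the site on chromosome 2 had an old Foxa2 site within 1 kb. Sorting the short class by enrichment instead brought up 3 sites of 1 bp each, chr12:22855600-22855600 at 28348, chr4:146561919-146561919 at 17867 and chr5:139470867-139470867 at 8069.

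The young-only sites of 30 bp or more were narrow too. Their median width was 51 bp (quartiles 39 and 67), against 94 bp (quartiles 65 and 121) for the other young Foxa2 sites of 30 bp or more. Their q-values ran from 0.000131 to 0.12 with a median of 0.0295, and 105 of 1425 had a q of at most 0.01, 7.37%. Among the other young sites of this width 53.4% did. The median width of the old Foxa2 sites of 30 bp or more that were in no other list was 96 bp, and that of the corresponding Hdac3 sites was 48 bp at 3 months and 47 bp at 21 months.

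The best-ranked wider young-only site, chr2:134651916-134652055, had a q of 0.000131, rank 301 and an enrichment of 35.0 over 140 bp. An old Foxa2 site lay 466 bp from it. The next was chr4:146808132-146808404 with an enrichment of 3.65 over 273 bp, which had a site of each of the 3 other lists within 2.70 kb. After it came chr5:26333474-26333894, was 421 bp wide with an enrichment of 5.88, and the nearest old Foxa2 site was 1328 kb away. The fourth was chr10:57696606-57696708 with an enrichment of 22.3 and sites of all 4 lists within 2.52 kb, the nearest old Foxa2 site at 1.05 kb. The fifth, chr12:20234300-20234656, had an enrichment of 4.58 over 357 bp, another young Foxa2 site at 306 bp and its nearest old Foxa2 site at 908 kb. These 5 sites thus differed in enrichment by up to 9.59 times, the low values going with the wider sites. The highest enrichments of the class were 632 at chr12:22778240-22778292, 526 at chr6:47603046-47603085 and 468 at chr5:81880434-81880521. The first of them lay 77.3 kb from the single base on chromosome 12 with the highest enrichment of the short class.

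The authors' enrichment of the young-only sites fell into separate bands. It is a ratio per site whose denominator is not stated in the sources used here, so values are compared only within the young Foxa2 list. On every chromosome but Y a fixed step was found of which many values were whole-number ratios. On chromosome 1 the step was 1.20, and the values 4.79, 5.99, 9.58, 10.8 and 11.98, at 4, 5, 8, 9 and 10 steps, were shared by 19, 6, 45, 22 and 10 young-only sites. A value was counted as on the steps when it equalled a whole number of steps, or such a number divided by 2 to 6, within 0.0011, and was no higher than 40 steps. On the steps lay 1224 of 2355 short young-only sites on chromosomes with a step, 52.0% (49.9 to 54.0), and 869 of 1423 wider ones, 61.1% (58.5 to 63.6). Of the other young sites 57.3% of the short and 63.6% of the wider ones did.

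The short young-only sites on the steps were crowded at the low end. At exactly 8 steps lay 554 of them, 23.5% of the class, and at 9 steps 154. At 4 steps, a value that is also 8 divided by 2, lay 257. Only 19 stood at 10 steps and 2 above 10. The wider young-only sites were spread further up, with 100 at 8, 133 at 9, 95 at 10 and 74 above 10 steps, 5.20% of the class. Of the other young sites of 30 bp or more 434 stood above 10 steps, 18.04%. On the steps the median q was 0.0369 for the short and 0.0335 for the wider young-only sites, and 0.0331 for the short and 0.0107 for the wider other young sites. These counts describe 1 list and come from the same measurement that chose the sites. They pool all chromosomes with a step, and the step numbers of chromosomes 11 and 17 may not match those of the others.

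Off the steps, the enrichment of a young-only site went down with its width. These 1131 short sites had enrichments from 20.8 to 28348 with a median of 151, whereas the short sites on the steps had a median of 8.97. Values above 40 steps were off the steps by rule, so this contrast is largely set in advance. The lower quartile of the short sites off the steps was 82.9, and the highest value of those on the steps was 49.9. The median of the sites off the steps was 1426 at 1 bp, 417 at 2 to 5 bp, 191 at 6 to 10 bp, 101 at 11 to 20 bp and 64.1 at 21 to 29 bp. The enrichment multiplied by the width in bp stayed in 1 range, with medians of 1426, 1393, 1539, 1459 and 1558 in the same bins. On the steps the median enrichment did not follow width among short sites, and lay between 8.73 and 9.17 in these bins. The 3 highest enrichments of young-only sites were at single bases, and 1 of these sites, on chromosome 4, was also among the 5 short sites with the lowest q. The cause of the bands was not tested.

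Most young-only sites of either width stood alone, and the share with a neighbour was higher in the wider class. No site of any list lay within 10 kb, edge to edge, of 1677 short sites, 71.1% (69.3 to 73.0), and of 874 wider ones, 61.3% (58.7 to 63.9). Sites that overlap another list were left out by the rule, and this share was not taken for the other classes. An old Foxa2 site lay within 10 kb of 425 short sites, 18.03% (16.5 to 19.6), and of 342 wider ones, 24.0% (21.8 to 26.3). With the old list shortened to the length of the young one these shares were 10.6% (9.35 to 11.9) and 15.6% (13.8 to 17.6), so both depended on the length of the old list. For young Hdac3 sites in no other list, which also overlap no old Foxa2 site by choice, the share was 16.9% under 30 bp (15.6 to 18.2) and 16.3% at 30 bp or more (14.8 to 17.9). The interval of the short young-only Foxa2 sites overlapped that of the short Hdac3 sites, and the interval of the wider ones did not overlap that of the wider Hdac3 sites. For old Hdac3 sites in no other list the share was 12.4% under 30 bp (10.8 to 14.04) and 15.6% at 30 bp or more (13.4 to 18.1). These intervals count neighbouring sites as independent, and no difference between the classes was tested. The Hdac3 shares were taken with the whole old Foxa2 list. Among the 89 young-only sites of 100 bp or more the share near an old Foxa2 site was higher, 54.0% at 100 to 199 bp (39.3 to 68.2) and 64.1% at 200 bp or more (47.2 to 78.8). A single 100 kb window on chromosome 1 held 35 young-only sites, with a median width of 169 bp, and 17 old Foxa2 sites. Shares without such dense windows were not taken for these widths. The median gap from a young-only site to the nearest old Foxa2 site was 67.9 kb for short and 63.7 kb for wider sites. Over 1000 kb from any old Foxa2 site lay 94 short and 89 wider young-only sites, of which 34 and 34 were on chromosome X.

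Some young-only sites lay right beside an old Foxa2 site without meeting it. Within 200 bp of one were 57 short and 37 wider young-only sites, 30 and 19 of them within 50 bp. Of the old sites nearest to these, 2 of 57 and 2 of 37 overlapped another young Foxa2 site. No 2 sites of the young Foxa2 list lay closer than 201 bp, which limits that number in advance. Among the young-only sites within 10 kb of an old site, the nearest old site overlapped another young Foxa2 site in 23.1% of short (19.1 to 27.4) and 35.1% of wider cases (30.03 to 40.4), against 21.0% of the whole old list. Without 13 windows of 100 kb that held 6 or more young-only sites the share of the wider class was 28.6% (23.3 to 34.3). These windows were chosen by the number of young-only sites in them.

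Young-only sites also had Hdac3 sites near them, the wider ones more often. Within 10 kb of a young Hdac3 site lay 163 short sites, 6.92% (5.92 to 8.02), and 187 wider ones, 13.1% (11.4 to 15.0). Within 10 kb of an old Hdac3 site lay 88 short sites, 3.73% (3.00 to 4.58), and 160 wider ones, 11.2% (9.63 to 12.98). Without the 13 crowded windows the shares of the wider sites were 9.11% (7.62 to 10.8) and 6.78% (5.48 to 8.26), so that the old Hdac3 share depended on them by over 1.5 times. The old Foxa2 sites of 30 bp or more in no other list had a young Hdac3 site within 10 kb in 9.73% (9.12 to 10.4) and an old one in 2.96% of cases (2.62 to 3.33). Such old Foxa2 sites under 30 bp had 7.14% (5.64 to 8.90) and 3.33% (2.31 to 4.62). Overlap with Hdac3 is absent from the young-only sites and these old sites by choice. The other young Foxa2 sites had a young Hdac3 site within 10 kb, without overlap, in 10.6% of short and 12.3% of wider cases. An old Hdac3 site lay so near in 4.10% and 4.28%. Not counted as near were those that overlapped an Hdac3 site. A young Hdac3 site was overlapped by 5 of 415 short and 208 of 2407 wider other young sites. For old Hdac3 sites the counts were 3 and 234. These shares are therefore not like those of the young-only sites, which have no overlap by choice.

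The neighbours of young-only sites within their own list were young-only about as often as the sites of the whole list. Another young Foxa2 site lay within 10 kb of 305 short sites, 12.9% (11.6 to 14.4), and of 323 wider ones, 22.7% (20.5 to 24.9). Of the other young sites, 20.7% of the short (16.9 to 24.9) and 29.7% of the wider ones (27.9 to 31.6) had such a neighbour. The nearest neighbour of these young-only sites was itself young-only in 61.3% of short (55.6 to 66.8) and 58.5% of wider cases (52.9 to 63.9), near the 57.3% of the whole list.

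**Figure D3:**
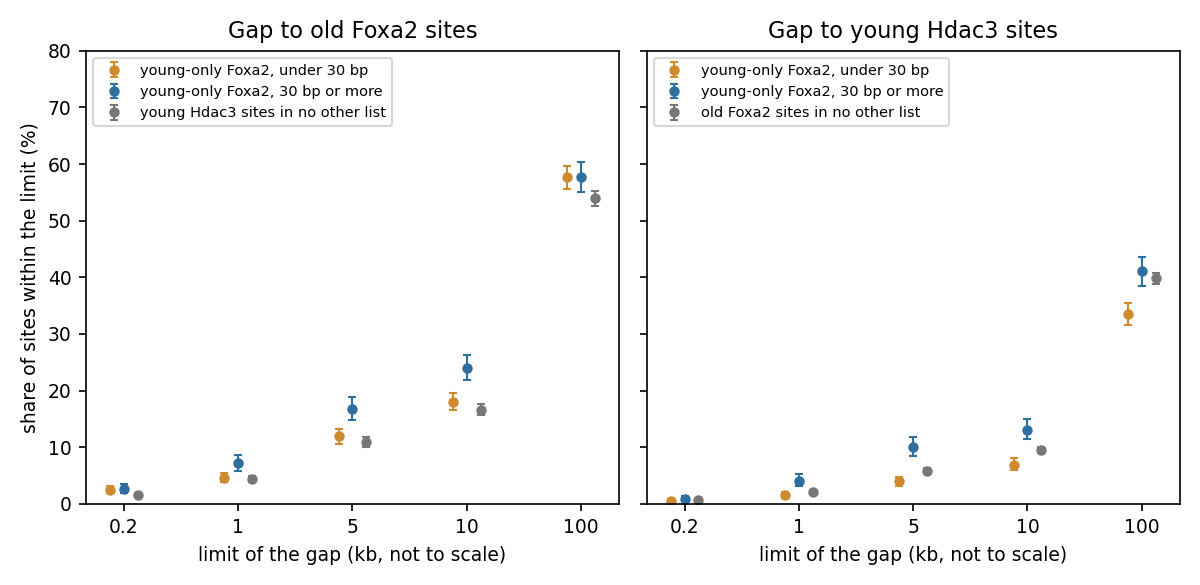
Share of sites (y axis, percent, exact 95% intervals as error bars) that have an old Foxa2 site (left) or a young Hdac3 site (right) within the gap on the x axis (kb, not to scale) without overlapping it, for young-only Foxa2 sites under 30 bp (orange) and of 30 bp or more (blue) and for a comparison class in grey, young Hdac3 sites in no other list on the left and old Foxa2 sites in no other list on the right. At 10 kb the wider young-only sites reach 24.0% and 13.1%, the shorter ones 18.03% and 6.92%.

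Chromosome X stood apart from the 19 autosomes. Of its 224 young Foxa2 sites 174 were young-only, 77.7% (71.7 to 83.0), against 56.5% on the autosomes together (55.3 to 57.8), where single chromosomes ranged from 45.6% on chromosome 19 to 63.3% on chromosome 14. X held 3.56% of the short young-only sites (2.85 to 4.39) and 6.32% of the wider ones (5.11 to 7.71), beside 3.39% of the whole young Foxa2 list (2.97 to 3.86). Hdac3 sites in no other list had like shares on X, 3.83% of the short (3.19 to 4.56) and 6.36% of the wider ones (5.40 to 7.44) at 3 months, and 5.11% (4.11 to 6.28) and 6.09% (4.65 to 7.80) at 21 months. The old Foxa2 list had 109 sites on X, 0.487 for each young one, whereas on single autosomes it had 1.44 to 3.06 for each young one. Young-only sites on X were far from old ones, with a median gap of 644 kb against 61.4 kb on the autosomes, and 11 of 174 had an old Foxa2 site within 10 kb. With fewer old sites on X there is less for a young site to overlap, so these counts are not independent, and the cause was not tested.

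The young-only sites on X also had weaker q-values. Of the short ones on X, 16 of 84 had a q of at most 0.05, 19.0% (11.3 to 29.1), against 81.0% on the autosomes (79.3 to 82.6). Of the wider ones 52 of 90 did, 57.8% (46.9 to 68.1), against 84.3% (82.3 to 86.2). With only such q-values counted, X held 0.863% of the short young-only sites (0.494 to 1.397) and 4.41% of the wider ones (3.31 to 5.75). With the steps as found, the commonest enrichment stood at 8 steps on each of the 19 autosomes and at 6 steps on X. On X 17 short young-only sites had it. The step numbers of chromosomes 11 and 17 may not match those of the other chromosomes. Chromosome Y had 5 young Foxa2 sites, 4 of them young-only, and no old one.

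**Figure D4:**
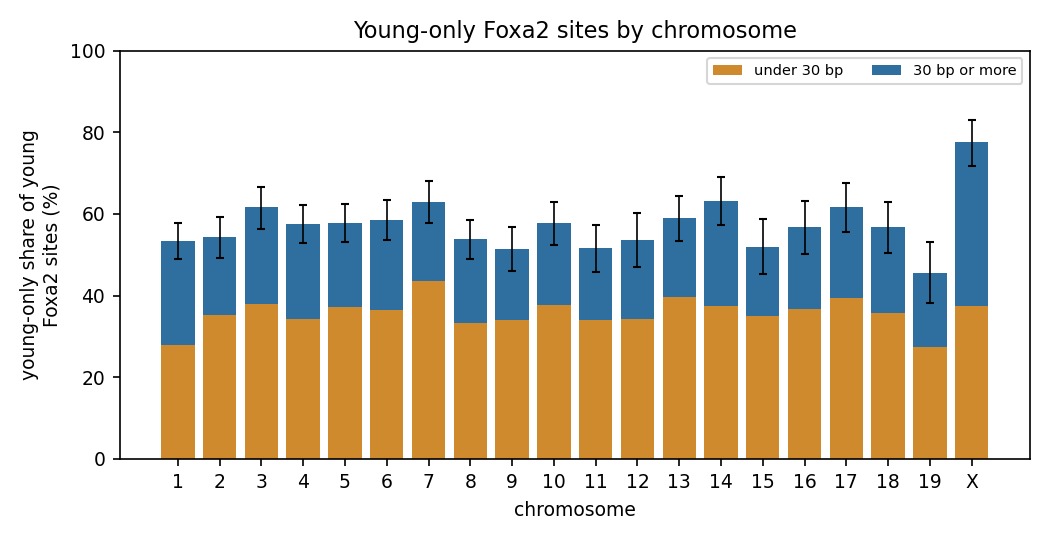
Young-only share of the young Foxa2 sites of each chromosome (y axis, percent, with the exact 95% interval of the whole bar), split into sites under 30 bp (orange) and of 30 bp or more (blue); chromosome Y with 5 young sites is left out. X reaches 77.7%, and the autosomes lie between 45.6% and 63.3%.

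A small part of the young-only sites lay in dense runs. The 13 windows with 6 or more of them held 135 young-only sites, 3.57% of all, of which 97 were 30 bp or wider. Elsewhere they were scattered: 2681 of the 3140 windows that held any young-only site held 1. The densest window, on chromosome 1, had 35 young-only sites between 90111959 and 90198409, of which 30 were 30 bp or wider, with a median width of 169 bp and a median enrichment of 2.70. The same window held 17 old Foxa2, 36 young Hdac3 and 69 old Hdac3 sites. Next came chromosome 4 from 145700705 to 145750793 with 16 young-only sites, beside 1 old Foxa2, 3 young Hdac3 and 1 old Hdac3 site in that window. After it came chromosome 7 from 46508750 to 46566894 with 13, beside 3 old Foxa2 sites, no young Hdac3 site and 2 old Hdac3 sites. The runs thus differed in whether the other lists had sites there. Some of the sites named above for their low q lay in dense windows too. On chromosome 4, 146826994-146827014 and 146808132-146808404 shared a window that held 6 young-only sites. On chromosome 12, 20234300-20234656 lay in a window that held 9. The widest young-only site, chr1:90156615-90157993, measured 1379 bp, had an enrichment of 1.52 and lay 20 bp from an old Foxa2 site.

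Values on either side of the limits of the rule were these. Of the young-only sites 14 lay at most 10 bp from a site of another list, with a median width of 6 bp, a median enrichment of 10.03 and a median q of 0.03185. Of the other young sites over 10 bp wide, 32 overlapped one by at most 10 bp, with medians of 44.5 bp, 9.79 and 0.02515. The nearest short case was chr6:31166505-31166514, which adjoined an old Foxa2 site with no base between. The nearest wider case was chr7:148703731-148703777, whose edge was 3 bp from one. Just across the limit was chr11:88345772-88345807, which overlapped an old Foxa2 site. At the width limit, 232 young-only sites of 25 to 29 bp had a median enrichment of 25.1 and a median q of 0.03155, and 210 of 30 to 34 bp had 11.5 and 0.03265. In the broader bins of 21 to 29 bp and 30 to 49 bp the median enrichments were 11.9 and 11.5. Off the steps lay 47.2% and 40.8% of the sites in these broader bins, so a median enrichment shifts with the mix of bands.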

How the data were processed

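ChIP-seq libraries of Foxa2 and Hdac3 from liver at 3 and 21 months were grouped by their titles, 2 per group. Per the submitters' processing notes, BWA was used and the build was mm9. The peak caller, the control, how the 2 libraries of a group were joined, whether they came from separate animals, and read depth are not stated in the sources used here. The deposited lists hold, per the file headers, a begin, an end, a fold enrichment (a ratio per site) and a q-value for each site, both made by the authors. The end was counted in the site, so that a site with equal begin and end is 1 bp wide.

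Every site was used. Sites were ranked by q, ties by higher enrichment. Gaps are edge to edge, and 1 bp means adjoining bases. Membership was checked with bedtools 2.31.1, which returned the same 3782 sites. The step of a chromosome was the commonest enrichment divided by the whole number, from 3 to 12, that placed most sites on it. The step finder was tested on simulated data. Named sites were the 5 with the lowest q and the 3 with the highest enrichment per width class, the sites nearest the limits, the widest site and the 3 densest windows. The young-only sites, lists and comparisons were chosen with earlier results of these data known. Steps were examined after the values were seen. Alternatives concerned overlap, q limits, list length, width, distance and crowded windows. Planned motif, transcription start and gene list results were not run, since the reference tables at hand were made for another build, so no gene names or sequences are given. Software was matplotlib 3.10.9, scipy 1.17.1, pandas 2.3.3 and numpy 2.4.6 under Python 3.11.15.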

Additional observations from a re-analysis of the deposited data

How the results depend on the processing

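No paired analysis was possible because the 2 libraries of each group share 1 list, and for the same reason no library could be left out. Of 51 alternatives to 16 results, 25 moved a value by less than its 95% interval or a count by less than 1.5 times. The count of 3782 young-only sites ranged from 3313 to 5281 over the other overlap rules, list choices and q limits, but was 307 of 1393 (22.0%) with q of at most 0.01 in all lists. Among the 106 of the 3782 young-only sites that had a q of at most 0.01, 0.943% were under 30 bp. The share of 62.3% under 30 bp became 48.3% at a limit of 20 bp and 80.3% at 50 bp. On X, q of at most 0.05 gave 0.863% of short and 4.41% of wider sites. Smaller distances lower every share by construction, and are given for 1 and then 5 kb. Near old Foxa2 sites they were 4.58% and 11.9% for short and 7.16% and 16.8% for wider sites, near Hdac3 of either age 2.12% and 5.52%, and 6.74% and 13.5%, and near other young Foxa2 sites 1.99% and 8.19%, and 8.14% and 16.6%. An old list shortened to the young length gave 10.6% and 15.6% near old Foxa2 sites. Without crowded windows the wider sites had 20.6% near old Foxa2, 13.2% near Hdac3 and 17.3% near young Foxa2 sites. Whole steps only held 45.8% of short and 43.2% of wider sites, and divisors up to 3 held 58.4% of wider ones. Distances on autosomes, the steps, crowded windows for young Foxa2 neighbours and an end not counted in the site were chosen after seeing the data. Motif and transcription start alternatives were not run. Read depth is unknown, so absence from a list is not absence of binding.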

Other observations

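The step of the enrichment differed between chromosomes in the young Foxa2 list. By the step finder it was 0.681 on chromosome 11 and 0.766 on chromosome 17, and between 1.07 and 1.33 on the other 17 autosomes. On X it was 1.04. The enrichment of sites at the same number of steps is therefore lower on chromosomes 11 and 17, where the commonest values were 5.45 and 6.13, against 10.7 on chromosome 19. Equal enrichments on different chromosomes do not stand for equal numbers of steps. The young-only share was 51.6% on chromosome 11 (95% interval 45.9 to 57.4) and 61.7% on chromosome 17 (55.5 to 67.6), within the range of the other autosomes.

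Short young-only sites off the steps were found on X in 59 of 1131 cases, 5.22% (3.99 to 6.68), and those on the steps in 25 of 1224, 2.04% (1.33 to 3.00). Among wider young-only sites X had 9.21% (6.93 to 11.9) off and 4.49% (3.21 to 6.08) on the steps. The split by steps was made after the values were seen, and values above 40 steps were off the steps by rule. The median enrichment of short young-only sites was 125.7 on X and 11.3 on the autosomes. That of the wider ones was 28.5 and 11.2. For short sites the higher share of X off the steps is therefore not independent of their enrichment, and it was not tested.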
